A study of Mus musculus with 29 samples.

Results

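DNA methylation was read along the mouse Ormdl3 and Gsdma locus, a block of chromosome 11 whose human counterpart is among the best known risk loci for asthma. The locus was taken as 8 neighbouring genes, which are, in genomic order, Stard3, Pgap3, Erbb2, Grb7, Ikzf3, Zpbp2, Ormdl3 and Gsdma. Its members were the windows that the deposited table names for one of these genes, 63 of 260686 windows in all. The 63 windows lie on chromosome 11 of GRCm38 and span 323.82 kb. Each held 50 CpG dinucleotides, spanned between 389 and 6183 bp (median 3236 bp) and had a value in every library. Ikzf3 carried 22 windows, Erbb2 10, Stard3 8, Pgap3, Grb7 and Gsdma 5 each, and Zpbp2 and Ormdl3 4 each.

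The 29 libraries came from lungs of 13-week-old BALB/c mice, described as female, in 4 groups. The study reports that these lungs were taken after a lung function test with rising doses of methacholine. It describes airway lavage straight after that test and does not say which of these lungs were lavaged. Dams received saline (Sham) or PM2.5, fine particulate matter collected beside a busy road, by the nose before mating, through gestation and until weaning. Their adult offspring were sensitised and challenged with ovalbumin (OVA), which sets up allergic airway disease, or received saline vehicle, which the labels call PBS. This gave Sham (saline and PBS, n = 7), Sham-OVA (saline and OVA, n = 7), PM (PM2.5 and PBS, n = 7) and PM-OVA (PM2.5 and OVA, n = 8). The DNA came from an unsorted piece of one right lung lobe, which the labels call RML and the study's methods the lower lobe, so fewer cells of a type and a change within cells cannot be told apart. Litter is not given per library, so the p-values measure the spread between these libraries, some of which may share a dam. The depth behind each percentage is unknown, and the enzymatic conversion used does not separate methylcytosine from hydroxymethylcytosine.

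One library stood apart: Sham replicate 1 had values in 1224 of the 1230 windows on chromosome Y, against 29 to 46 in the other libraries, which goes against the stated sex. Results of the OVA comparison in Sham offspring that turn on it are given without it as well. Any 2 libraries of one group correlated at r = 0.992 to 0.997 across windows, and no pair was identical.

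As background, ORMDL proteins sit in the endoplasmic reticulum and restrain serine palmitoyltransferase, the enzyme that opens sphingolipid synthesis. Gasdermins are pore-forming proteins that can permeabilise membranes, and Ikzf3 encodes Aiolos, an Ikaros family zinc finger factor of B and T lymphocytes. Erbb2 is a receptor tyrosine kinase, and Grb7 is an adaptor that binds such receptors. Stard3 moves cholesterol between membranes, Pgap3 remodels the lipid of GPI anchors, and Zpbp2 is a sperm protein that binds the zona pellucida. Methylation of CpG-dense gene starts usually goes with silence of the gene, whereas gene bodies are commonly methylated in active and inactive genes alike.

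The sequences below are shown because they lie wholly inside windows named in the results. The first 3 are stretches directly upstream of a gene start, from RefSeq on GRCm38, and the last is the most CpG-dense 200 bases, outside any exon, of the window with the largest loss after OVA. CpG dinucleotides are in capitals. Promoter entries matched 5 of the 8 genes, all but Grb7, Ikzf3 and Gsdma. The RefSeq start of Ormdl3 lies 123 bp inside the annotated GENCODE gene, so only the 127 bases upstream of both starts are printed.
Ormdl3 upstream (chr11:98587369-98587495, minus strand): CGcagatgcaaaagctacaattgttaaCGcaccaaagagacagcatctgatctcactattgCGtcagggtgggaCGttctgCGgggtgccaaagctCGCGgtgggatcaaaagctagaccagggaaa
Zpbp2 upstream (chr11:98550847-98551096, plus strand): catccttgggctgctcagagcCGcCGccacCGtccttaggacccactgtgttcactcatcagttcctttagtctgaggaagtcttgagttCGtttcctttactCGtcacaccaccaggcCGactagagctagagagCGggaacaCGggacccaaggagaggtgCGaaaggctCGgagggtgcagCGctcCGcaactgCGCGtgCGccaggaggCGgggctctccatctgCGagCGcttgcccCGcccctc
Pgap3 upstream (chr11:98400491-98400740, minus strand): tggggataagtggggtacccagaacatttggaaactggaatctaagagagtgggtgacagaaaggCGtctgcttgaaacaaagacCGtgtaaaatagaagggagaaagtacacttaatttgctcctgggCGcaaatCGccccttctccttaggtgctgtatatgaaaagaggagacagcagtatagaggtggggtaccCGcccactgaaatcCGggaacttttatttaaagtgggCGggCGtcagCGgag
Ikzf3 intron (chr11:98475023-98475222, printed on the plus strand, gene on the minus strand): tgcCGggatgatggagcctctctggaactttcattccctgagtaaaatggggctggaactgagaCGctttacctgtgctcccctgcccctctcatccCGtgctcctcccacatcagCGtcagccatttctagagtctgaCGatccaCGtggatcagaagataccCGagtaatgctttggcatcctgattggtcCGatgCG
The stretches above hold 7, 19, 9 and 9 CpGs, in that order. Counted over the 250 bases before each RefSeq start, Zpbp2 had 19 CpGs, Ormdl3 18, Erbb2 16, Stard3 15 and Pgap3 9, against a median of 6 over 27025 genes. As many CpGs as at Ormdl3 were found at 21.6% of those promoters, and as many as at Pgap3 at 40.7%.

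In unchallenged Sham lung the 63 windows covered the whole range of methylation, from a mean of 0.187% to 92.8%. The median window of the locus stood at 71.3%, against 76.9% over the 259167 windows tested. There were 6 windows under 10% and 42 at 60% or more. All 6 lowly methylated windows lay at a gene start or next to one. Windows are numbered here from the 5′ to the 3′ end of each gene, so that Erbb2 1 is the window over the start of Erbb2. Erbb2 1 stood at 0.187% ± 0.196 (SD, n = 7, as for all Sham values), Stard3 1 at 0.271% ± 0.667 and Ikzf3 1 at 1.16% ± 0.351. Ormdl3 2, inside the first part of Ormdl3, stood at 0.624% ± 0.481, and Ormdl3 1, over its start and 1741 bp of upstream sequence, at 4.61% ± 0.779. Zpbp2 1 was at 6.01% ± 0.721.

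The start windows of the remaining 3 genes were not lowly methylated. Grb7 1 had a mean of 34.7% ± 1.34, Pgap3 1 of 41.8% ± 1.64 and Gsdma 1 of 53.4% ± 0.922. Those windows were also the longest at a start, 4740, 3583 and 6183 bp, so a start that is itself unmethylated could not be resolved from its surroundings in them. The 5 Gsdma windows were the most alike of any gene in the locus, between 51.9% and 61.7%, with no lowly methylated window among them. Erbb2 spanned the widest range, rising from its unmethylated start through 13.8% in Erbb2 2 to 92.8% in Erbb2 5.

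**Figure D1:**
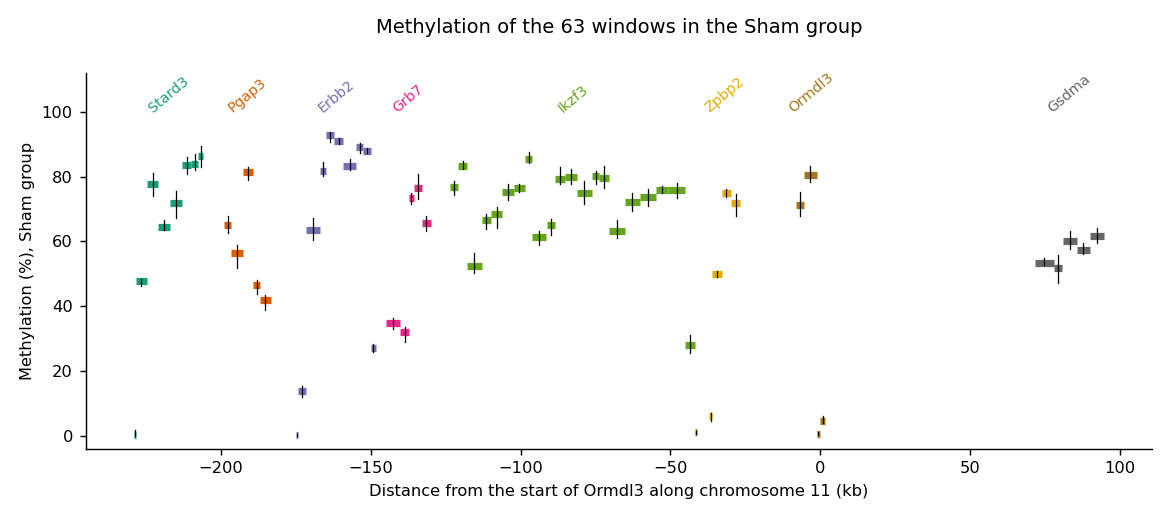
Mean methylation (%) of each of the 63 windows in the Sham group (n = 7) against distance from the start of Ormdl3 (kb). Horizontal bars span each window, vertical lines run from the lowest to the highest Sham library, and colours mark the genes. The 6 windows near the bottom lie at the starts of Stard3, Erbb2, Ikzf3, Zpbp2 and Ormdl3, whereas the Gsdma windows sit between 51.9% and 61.7%.

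The first comparison asked how methylation of the locus differed between challenged and unchallenged offspring of each kind of dam. After OVA, Ikzf3 lost methylation over a run of 3 windows toward its 3′ end, Grb7 gained it most over its start and the intronic window beyond, the Erbb2 body lost a few points, and Stard3 gained a few. Ormdl3 gained methylation in the window over its GENCODE start and lost it in 1 of 3 windows further in. None of the 5 Gsdma windows was called. A window was called when the limma moderated test on the log2 ratio of methylated to unmethylated percentages gave an adjusted p under 0.05 over all 259167 windows. A differentially methylated region (DMR) also had to differ by at least 10 percentage points.

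In Sham offspring 30 of the 63 windows were called (47.6%), 16 higher and 14 lower after OVA, where 35.6% of all tested windows were called. In PM offspring 32 windows were called (50.8%), 13 higher and 19 lower, against 44.1% of all windows. The split in PM offspring depended on scaling: with each library centred on its median deviation it was 20 higher and 14 lower, and in Sham offspring 17 and 12. With centred libraries 37.6% of all windows were called in PM and 36.1% in Sham offspring. No window called under both scalings changed sign. On the scale as deposited, 22.3% of all windows fell and 13.3% rose in Sham offspring, and 34.8% fell and 9.26% rose in PM offspring, whereas with centred libraries 50.7% and 50.3% of all called windows were higher. Whether the locus looked less or more one-sided than the rest of the table therefore depended on the scaling. Over the locus the median difference was 0.0397 points for Sham and -0.0764 for PM offspring, against -0.414 and -1.03 over all windows. Of the 8 windows over a gene start, 2 rose in Sham offspring, where 24.8% of all windows over a coding gene start were called (12.5% higher, 12.3% lower), and in PM offspring 2 rose and 2 fell, against 29.8% (9.29% higher, 20.5% lower). Of the 55 windows elsewhere, 28 were called in Sham offspring, 14 each way, against 36.5% of such windows (13.4% higher, 23.1% lower), and 28 in PM offspring, 11 higher and 17 lower, against 45.3% (9.26% higher, 36% lower). The DMRs were the same 3 windows in both arms, Grb7 2, Ikzf3 18 and Ikzf3 19 (4.76% of the locus), 1 higher and 2 lower. Among all windows 0.775% were DMRs in Sham offspring (0.479% higher, 0.296% lower) and 0.584% in PM offspring (0.263% higher, 0.321% lower). The study's own limit for a DMR was stricter, an adjusted p under 0.000001 in its test on counts, with the same 10 points. At that limit in the limma test the 2 Ikzf3 windows stayed DMRs in both arms. Grb7 2 did not (adjusted p = 6.17e-06 and 1.65e-05 by limma). Without Sham replicate 1 the count in Sham offspring was 28 windows, 15 higher and 13 lower, where 32.9% of all windows were called. Erbb2 2 and Ikzf3 17 then missed the threshold (adjusted p = 0.0535 and 0.0572 by limma), and the 3 DMRs were still called.

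**Figure D2:**
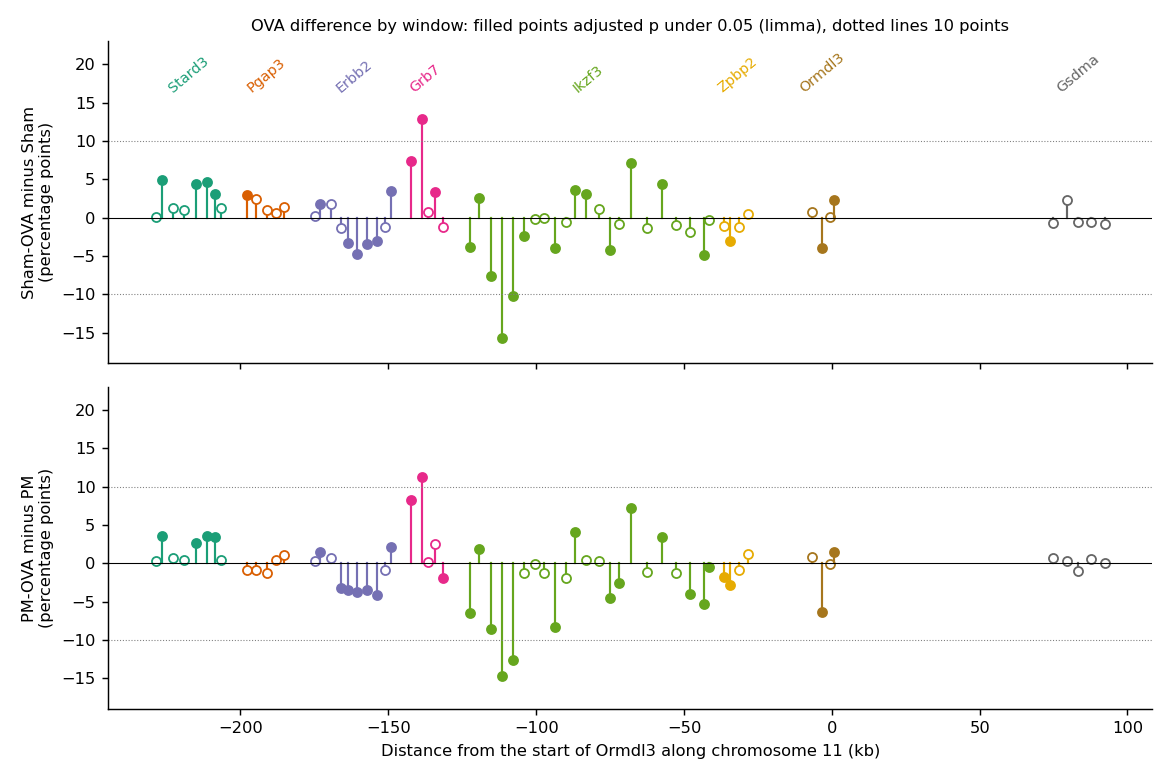
Difference in methylation (percentage points) after OVA for each of the 63 windows, in Sham offspring (upper panel) and PM offspring (lower panel), against distance from the start of Ormdl3 (kb). Filled points passed adjusted p under 0.05 by limma, and dotted lines mark 10 points. The lowest points are Ikzf3 19 at -15.7 and -14.7 points and the highest are Grb7 2 at 12.9 and 11.2 points, while every Gsdma point is open.

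Ikzf3 (ENSMUSG00000018168, minus strand, chr11:98464902-98546031) held the window that moved most, Ikzf3 19. It lies at chr11:98474354-98477589, centred 70060 bp downstream of the annotated start of Ikzf3, and holds 241 exonic bases among intron sequence. The 7 Sham libraries ran from 63.7% to 68.5% with a median of 66.8%, and the 7 Sham-OVA libraries from 46.9% to 61.0% with a median of 49.97%. In the PM arm the lowest, median and highest values were 60.5%, 66.5% and 68.5% without OVA and 45.0%, 49.6% and 56.3% with it. All challenged libraries lay below all unchallenged libraries of their arm. The difference was -15.7 points in Sham (log2 ratio -0.92 ± 0.11 SE, adjusted p = 3.48e-07 by limma) and -14.7 points in PM offspring (-0.86 ± 0.11, adjusted p = 3.5e-07).

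The adjoining window Ikzf3 18, which holds no exon, went from 68.4% ± 2.39 to 58.2% ± 2.98 in Sham and from 70.5% ± 1.57 to 57.9% ± 2.67 in PM offspring. The differences of -10.2 and -12.6 points were larger than the spread between libraries (adjusted p = 8.1e-07 and 1.13e-08 by limma), and the groups again did not overlap. In Sham offspring it lay close to the limit for a DMR: without any one of Sham replicates 3, 5 and 6 or Sham-OVA replicates 4 and 6 the difference lay between -9.95 and -9.36 points, and with centred libraries it was -9.79 points. On the other side Ikzf3 20, named here after its values were seen, differed by -7.58 and -8.59 points (adjusted p = 6.14e-05 and 5.61e-06 by limma) without overlap in either arm.

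The loss did not extend over Ikzf3 as a whole. Of its 22 windows, 8 fell, 5 rose and 9 were not called in Sham offspring, and 10 fell, 4 rose and 8 were not called in PM offspring. Ikzf3 7, also chosen after its values were seen, rose from 63.2% ± 2.18 to 70.3% ± 2.31 in Sham and from 62.9% ± 2.64 to 70.2% ± 1.70 in PM offspring (adjusted p = 2.79e-05 and 1.07e-05 by limma), again with no overlap. At the start, Ikzf3 1 was at 1.89% or below in every library. It fell by 0.462 points in PM offspring (adjusted p = 0.0441 by limma), a call lost with an offset of 5 points, untransformed percentages, centred libraries, a trended prior or the replicate block (adjusted p between 0.0523 and 0.223). The call was also lost without any one of PM-OVA replicates 1, 2, 5, 6, 7 and 8 or PM replicates 3, 5 and 6, and with centred libraries the plain difference was 0.517 points. In Sham offspring Ikzf3 1 differed by -0.287 points (adjusted p = 0.266 by limma). The windows of Ikzf3 therefore moved in both directions within one gene, and the gene mean differed by -1.69 points (Sham) and -2.60 points (PM).

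Ikzf3 is chiefly a lymphocyte gene, and genes of leucocytes moved in the same lungs. Over 101 windows of 19 leucocyte genes, 62 were called in Sham (24 higher and 38 lower, 61.4%, against 35.6% of all windows) and 64 in PM offspring (23 higher and 41 lower, 63.4%, against 44.1%), and all 13 and 11 DMRs among them fell. Their mean methylation per library ran from 67.4% to 69.2% in Sham and from 65.6% to 67.0% in Sham-OVA, and from 68.4% to 69.6% in PM and from 65.9% to 67.1% in PM-OVA. The largest difference in the list was in a window of Ptprc, the pan-leucocyte CD45 gene (-19.1 and -16.5 points). Cd3e, Cd3g and Ccr3 had no called window in either arm. Of 171 windows of 19 lung structural genes, 68 were called in Sham (46 higher and 22 lower, 39.8%) and 62 in PM offspring (32 higher and 30 lower, 36.3%), with 2 DMRs higher and 1 lower in Sham and 1 lower in PM offspring. The part of cell numbers in the Ikzf3 values was not tested.

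The 5 genes whose windows followed Ikzf3 19 most closely over the 29 libraries were Fcgr2b (Pearson r = 0.963), Gm26708 (0.961), Mgat5 (0.960), Cnr2 (0.959) and Tlr3 (0.959). Those values include the difference between groups; after the group means were removed, the same windows stood at r = 0.747 to 0.784. Of the other Ikaros family genes, 3 had windows, 52 in all, of which 26 were called in Sham (5 higher and 21 lower, 50%, against 35.6% of all windows) and 33 in PM offspring (2 higher and 31 lower, 63.5%, against 44.1%). Both DMRs among them were in Ikzf1, which encodes Ikaros, with differences of -23.5 and -18.8 points in Sham and of -22.2 and -17.9 points in PM offspring.

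**Figure D3:**
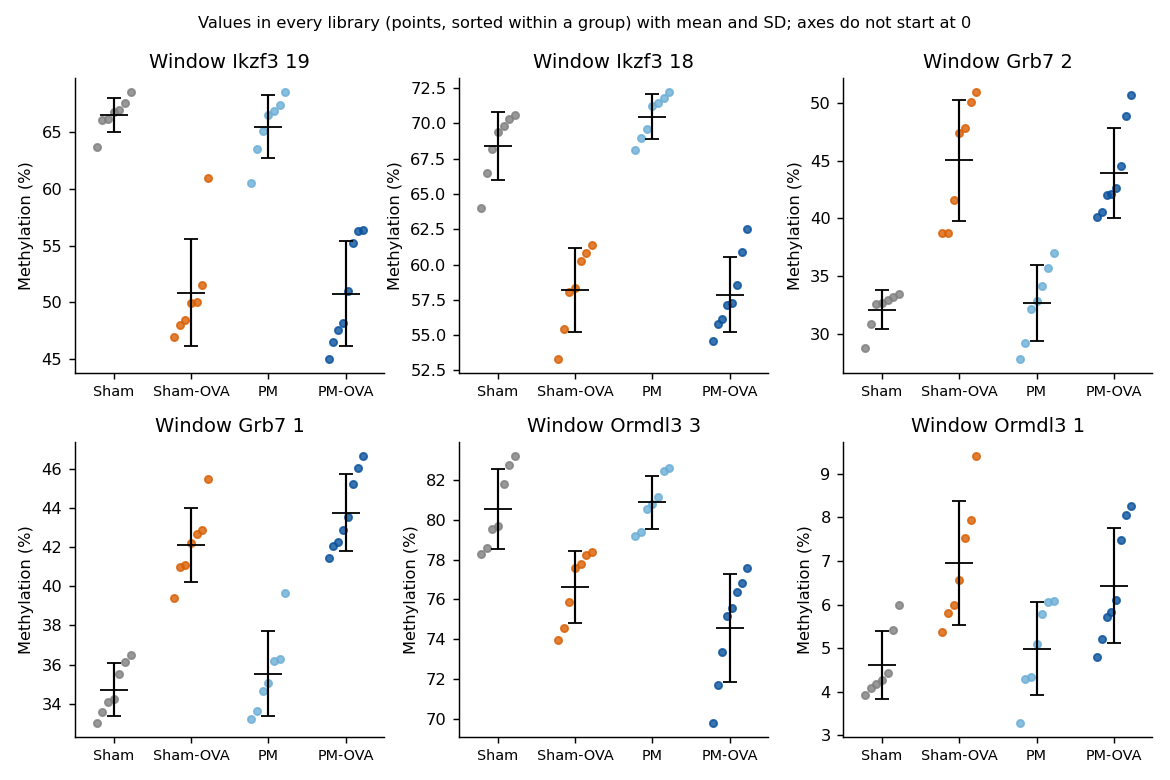
Methylation (%) in every library for 6 windows of Ikzf3, Grb7 and Ormdl3, by group (Sham, Sham-OVA and PM n = 7, PM-OVA n = 8); black bars give the mean and SD, and axes do not start at 0. The challenged and unchallenged libraries are separate in Ikzf3 19, Ikzf3 18, Grb7 2 and Grb7 1, whereas those of Ormdl3 1 overlap in both arms.

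Grb7 (ENSMUSG00000019312, plus strand, chr11:98446394-98455373) showed the largest gain in the locus. Grb7 2 lies at chr11:98447267-98450112, centred 2295 bp from the annotated start, and is intronic throughout. The Sham libraries ran from 28.8% to 33.5% (median 32.7%) and the Sham-OVA libraries from 38.7% to 50.9% (median 47.3%). In the PM arm the libraries ran from 27.8% to 37.0% (median 32.9%) without OVA and from 40.1% to 50.7% (median 42.3%) with it. The groups did not overlap in either arm, and the OVA libraries were the more spread out. The difference was 12.9 points in Sham (log2 ratio 0.77 ± 0.11 SE, adjusted p = 6.17e-06 by limma) and 11.2 points in PM offspring (0.68 ± 0.11, adjusted p = 1.65e-05).

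Over the start of the gene, Grb7 1 rose from 34.7% ± 1.34 to 42.1% ± 1.90 in Sham and from 35.5% ± 2.16 to 43.8% ± 1.97 in PM offspring (adjusted p = 2.76e-06 and 2.69e-07 by limma), without overlap. Of the 5 windows of the gene, 3 rose in Sham offspring, and 2 rose and 1 fell in PM offspring. Grb7 4, further into the gene, rose by 3.38 points in Sham (adjusted p = 0.0328 by limma) and differed by 2.56 points in PM offspring (adjusted p = 0.0773), where it was called with centred libraries (adjusted p = 0.00671). At the 3′ end Grb7 5 differed by -1.17 points in Sham (adjusted p = 0.249) and fell by 1.92 points in PM offspring (adjusted p = 0.0399 by limma). That last call was absent with centred libraries (adjusted p = 0.684).

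Erbb2 (ENSMUSG00000062312, plus strand, chr11:98412470-98437716), which lies upstream of Grb7 with Mien1 between them, fell over a run of 4 windows in the middle of the gene in both arms. Of its 10 windows, 4 fell, 2 rose and 4 were not called in Sham offspring, and 5 fell, 2 rose and 3 were not called in PM offspring. Erbb2 6 went from 91.0% ± 0.726 to 86.3% ± 0.645 in Sham and from 90.1% ± 1.49 to 86.3% ± 2.06 in PM offspring (adjusted p = 6.56e-06 and 8.84e-05 by limma). Its Sham libraries (90.2% to 91.8%) lay above all Sham-OVA libraries (85.4% to 87.2%), while the PM arm overlapped (88.5% to 92.9% against 83.4% to 89.3%). The 4 windows from Erbb2 5 to Erbb2 8 fell in both arms, with differences from -4.75 to -3.04 points (Sham) and from -4.11 to -3.43 points (PM). At the last window, Erbb2 10, which also overlaps Mien1, methylation rose by 3.47 and 2.15 points. Erbb2 1, at the start, stayed at or below 1.13% in every library and was not called (adjusted p = 0.112 and 0.0567 by limma). In PM offspring it passed the test, as higher after OVA, with centred libraries and without any one of PM-OVA replicates 2, 3 and 8, PM replicates 1 and 2 or Sham-OVA replicate 5 (adjusted p between 0.0250 and 0.0471). Among the other ErbB receptors and the Grb7 family, 55 of 185 windows were called in Sham (29.7%, against 35.6% of all windows) and 89 in PM offspring (48.1%, against 44.1%), and there was no DMR.

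At Ormdl3 (ENSMUSG00000038150, minus strand, chr11:98581256-98587368) the window over the GENCODE start and 1 window of the body moved in opposite directions. Ormdl3 1, over the start, ran from 3.92% to 5.99% (median 4.27%) in Sham and from 5.38% to 9.41% (median 6.57%) in Sham-OVA libraries. Without and with OVA, the PM arm ran from 3.28% to 6.08% (median 5.10%) and from 4.80% to 8.25% (median 5.97%). The groups overlapped in both arms. The difference was 2.33 points in Sham (log2 ratio 0.53 ± 0.13 SE, adjusted p = 0.00246 by limma) and 1.44 points in PM offspring (0.33 ± 0.13, adjusted p = 0.0341). The PM call was weak: it was lost without any one of PM-OVA replicates 1, 2 and 7 or PM replicates 3, 5 and 7 (adjusted p between 0.0632 and 0.103), with untransformed percentages (adjusted p = 0.0575) and with the replicate block on title numbers or library numbers (adjusted p = 0.0590 and 0.0983). The 2 arms were not shown to differ (interaction adjusted p = 0.824 by limma).

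Further into the gene, Ormdl3 3 fell from 80.6% ± 2.02 to 76.6% ± 1.82 in Sham and from 80.9% ± 1.34 to 74.5% ± 2.72 in PM offspring. The differences of -3.94 and -6.34 points had adjusted p = 0.00341 and 1.71e-05 by limma. The Sham libraries overlapped by a little (78.3% to 83.2% against 74.0% to 78.4%), whereas the PM libraries (79.2% to 82.6%) lay above all PM-OVA libraries (69.8% to 77.6%). The interaction did not pass the test (-2.40 points, adjusted p = 0.745 by limma). Between those windows, Ormdl3 2 was close to unmethylated throughout, with differences of 0.108 and -0.138 points. The RefSeq start of Ormdl3, 123 bp inside the GENCODE gene, lies in Ormdl3 2, so Ormdl3 1 is wholly upstream of it. Whether the gain lies over the start or upstream of it therefore depends on the annotation. Ormdl3 4 at the 3′ end differed by 0.688 and 0.865 points. Neither Ormdl3 2 nor Ormdl3 4 was called. The gene mean differed by -0.204 points in Sham offspring (adjusted p = 0.722 by limma) and fell by 1.04 points in PM offspring (adjusted p = 0.0282), a call lost with centred libraries (adjusted p = 0.634). With the median over windows in place of the mean the direction turned, to 1.51 points in Sham (adjusted p = 0.0539 by limma) and 1.04 points in PM offspring (adjusted p = 0.144), neither of them called.

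The 5 genes nearest to Ormdl3 1 in pattern over the 29 libraries were Gm39383 (r = 0.867), Plekhh2 (0.866), Pcnx2 (0.853), Nfib (0.838) and Art5 (0.837). They were picked as the highest over the windows outside the locus, and the values include the difference between groups. After the group means were removed, the same windows stood at r = 0.687 to 0.790. Among genes of the same pathway, those of serine palmitoyltransferase and ceramide synthesis, 14 had windows: 51 of 149 were called in Sham (26 higher and 25 lower, 34.2%, against 35.6% of all windows) and 58 in PM offspring (22 higher and 36 lower, 38.9%, against 44.1%). Neither of the 2 windows of Ormdl1, a paralog of Ormdl3, was called. The list held 1 DMR, in the ceramide synthase gene Cers1, which rose from 33.7% to 44.6% in Sham and from 30.4% to 44.8% in PM offspring.

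Gsdma (ENSMUSG00000017204, plus strand, chr11:98664351-98677708) was the gene of the locus without a called window in either arm. Its 5 windows differed by between -0.843 and 2.26 points in Sham and between -0.995 and 0.719 points in PM offspring. Gsdma 1, over the start, ran from 52.6% to 55.0% in Sham, 51.1% to 55.3% in Sham-OVA, 50.9% to 53.9% in PM and 51.6% to 54.5% in PM-OVA libraries. Gsdma 2 had the largest mean difference of the 5 windows, 2.26 points in Sham (adjusted p = 0.142 by limma) and 0.331 points in PM offspring (adjusted p = 0.838), with Sham libraries spread from 47.3% to 55.8%. The absence of a call held for the scale as deposited: with centred libraries Gsdma 1 and Gsdma 4 were higher after OVA in PM offspring, by 1.70 and 1.56 points (adjusted p = 0.00892 and 0.00655 by limma). Reads shared with the near copies Gsdma2 and Gsdma3 may have been placed on either gene, and how this was handled is not given in the sources used here. Those 2 genes had 3 and 2 windows, of which 0 were called in Sham and 1, in Gsdma3, in PM offspring. Of 33 windows of other gasdermin genes, 10 fell in Sham offspring (30.3%, where 22.3% of all windows fell), and 16 fell and 1 rose in PM offspring (51.5%, where 44.1% of all windows were called and 34.8% fell), with no DMR.

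The remaining genes moved by a few points. They were Stard3 (ENSMUSG00000018167, plus strand, chr11:98358368-98381112), Pgap3 (ENSMUSG00000038208, minus strand, chr11:98388677-98400490) and Zpbp2 (ENSMUSG00000017195, plus strand, chr11:98551097-98558665). Of the 8 Stard3 windows the same 4 rose in both arms, led by Stard3 2, which went from 47.7% ± 0.745 to 52.6% ± 1.73 in Sham and from 48.9% ± 2.82 to 52.5% ± 2.18 in PM offspring (adjusted p = 0.00107 and 0.00782 by limma). The Sham groups did not overlap there and the PM groups did. Stard3 1, the unmethylated start, differed by 0.0397 and 0.241 points and was not called. Zpbp2 2 fell from a mean of 50.1% to 47.1% in Sham and from 50.3% to 47.5% in PM offspring (adjusted p = 0.0015 and 0.00118 by limma), and the PM call was lost with centred libraries (adjusted p = 0.146). With centred libraries Zpbp2 4, not called on the deposited scale, was higher after OVA in PM offspring (2.20 points, adjusted p = 0.0108 by limma). Zpbp2 1, over the CpG-dense start, fell by 1.82 points in PM offspring (adjusted p = 0.00285 by limma), and its difference in Sham offspring was -1.12 points (adjusted p = 0.0669), which passed the test without PM-OVA replicate 2, Sham-OVA replicate 7 or Sham replicate 6 (adjusted p between 0.00654 and 0.0439) and with the block on library numbers (adjusted p = 0.0106). Of the 5 Pgap3 windows, only Pgap3 5 at the 3′ end was called, 2.95 points higher in Sham offspring (adjusted p = 0.0199 by limma). Pgap3 1 differed by 1.42 and 1.08 points without a call, but was called higher in both arms with centred libraries (adjusted p = 0.0412 and 0.00661), as was Pgap3 2 in PM offspring (adjusted p = 0.0310).

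Gene means, 1 value per gene and library, gave a coarser view. In Sham offspring 6 of the 8 genes were called, where 39.4% of 38163 genes were (11.9% higher, 27.5% lower): Stard3 (2.55 points), Pgap3 (1.68) and Grb7 (4.65) were higher, and Erbb2 (-0.999), Ikzf3 (-1.69) and Zpbp2 (-1.22) lower. In PM offspring 6 were called, against 54% of all genes (6.89% higher, 47.1% lower): Stard3 (1.86) and Grb7 (4.06) were higher, and Erbb2 (-1.43), Ikzf3 (-2.60), Zpbp2 (-1.10) and Ormdl3 (-1.04) lower. Gsdma was called in neither arm (-0.0900 and 0.143 points). Only Stard3, Grb7 and Ikzf3 kept their call in both arms with centred libraries, an alternative added after the data were seen; Erbb2 and Zpbp2 were then called in neither arm, Ormdl3 had a difference of 0.0217 points in PM offspring, and Gsdma was called higher there (1.21 points, adjusted p = 0.00218 by limma). The gene values also depended on the summary. With the median over windows in place of the mean, Grb7 turned to -1.17 points in Sham (adjusted p = 0.211 by limma) and to -1.92 points in PM offspring, where it was called lower (adjusted p = 0.0259), Ormdl3 turned to higher values without a call, and of the 8 genes only Erbb2 was called in both arms, lower in each. Without Sham replicate 1, Pgap3 and Zpbp2 were no longer called in Sham offspring (adjusted p = 0.0523 and 0.0539 by limma).

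**Figure D4:**
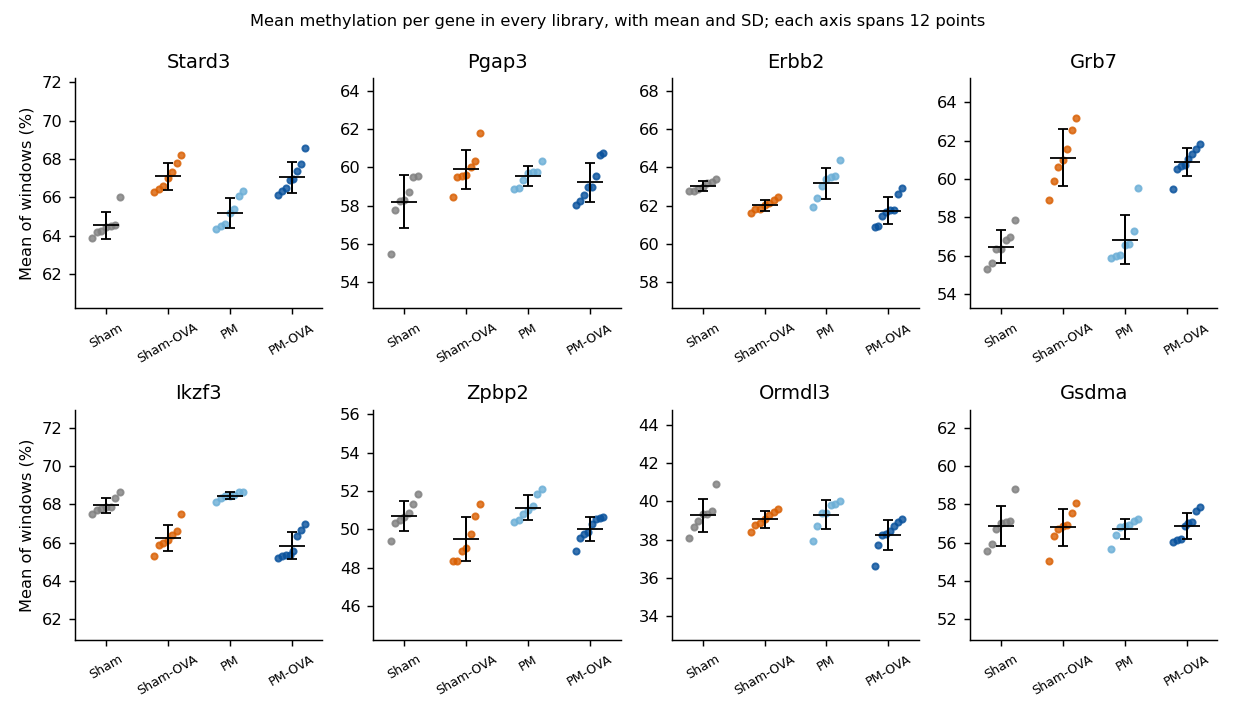
Mean methylation (%) over the windows of each gene in every library, by group, with the mean and SD as black bars; each panel spans 12 percentage points. Grb7 and Stard3 sit higher and Ikzf3 lower in both OVA groups (for Grb7 the median over windows went the other way), whereas the 4 groups of Gsdma lie together.

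The same windows moved in both kinds of offspring, which share no library. Of the 63 windows, 26 were called in both arms in one direction (41.3%), 13 higher and 13 lower, where 27.3% of all tested windows were (7.57% higher, 19.7% lower); 4 were called in Sham offspring only, 6 in PM offspring only and 27 in neither. No window was called in opposite directions. Across the 63 windows the OVA differences of the 2 arms correlated at Pearson r = 0.957 and Spearman rho = 0.919, as a description of windows that are not independent; over all tested windows Pearson r was 0.879. The sign was the same for 56 of the 63 windows, and for 81.8% of all windows. Groups that did not overlap were found for 10 windows in Sham (15.9%, against 8.58% of all windows) and 13 in PM offspring (20.6%, against 12%), 7 of them in both arms, in Ikzf3, Grb7 and Erbb2.

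**Figure D5:**
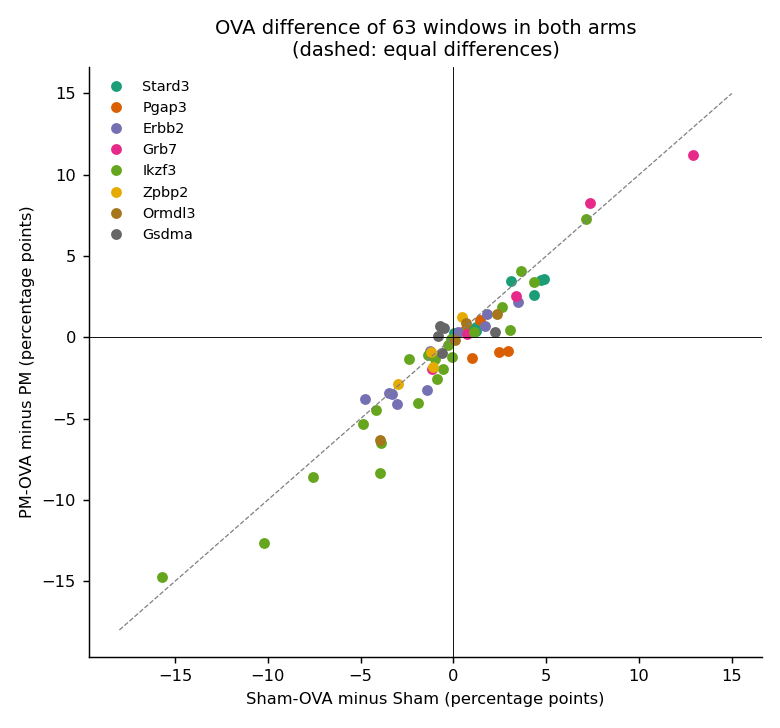
OVA difference (percentage points) in PM offspring against that in Sham offspring for the 63 windows, coloured by gene; the dashed line marks equal differences. Points follow the dashed line (r = 0.957), with Ikzf3 19 at the lower left and Grb7 2 at the upper right.

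The second comparison asked whether exposure of the dam was followed by a difference in the offspring, without OVA or after it. No window of the locus passed the adjusted test by limma between PM and Sham offspring or between PM-OVA and Sham-OVA offspring, and 0% of all tested windows did. At an unadjusted p under 0.05 there were 2 windows without OVA (both higher in PM, 3.17%, against 5.79% of all windows, 4.89% higher and 0.898% lower) and 1 with OVA (lower in PM-OVA, 1.59%, against 5.96%, 0.872% higher and 5.09% lower). The differences lay between -1.47 and 3.42 points without OVA and between -2.44 and 1.66 points with it. All were smaller than the 2 leading OVA differences, but some called OVA differences were no larger, such as Ormdl3 1 (2.33 and 1.44 points). The largest difference by exposure of the dam was at Pgap3 5, which went from 65.0% ± 1.89 in Sham to 68.4% ± 1.84 in PM offspring (unadjusted p = 0.00165, adjusted p = 0.805 by limma). Ikzf3 19, the window that moved most after OVA, differed by -1.05 points between PM and Sham and by -0.0816 points between PM-OVA and Sham-OVA offspring.

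The OVA difference itself was also compared between arms. No window of the locus passed the adjusted interaction test by limma, as none did over all windows, and 3 had an unadjusted p under 0.05 (all negative, 4.76%, against 7.4% of all windows, 0.566% positive and 6.83% negative). They were Pgap3 5 (unadjusted p = 0.00938), whose OVA difference was 2.95 points in the Sham arm and -0.824 in the PM arm, Pgap3 3 and Ikzf3 14. Ikzf3 14 differed by -3.94 points in the Sham arm and by -8.35 in the PM arm (unadjusted p = 0.0230, adjusted p = 0.636 by limma). The lowest adjusted p for the interaction was 0.589 over the 63 windows, and 0.462 over the 8 gene means, where it belonged to Pgap3.

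The locus sits in a wider block of genes, in which 22 other genes, some of them between the 8 members, carried 158 windows. Of these, 72 were called in Sham (62 higher and 10 lower, 45.6%, against 35.6% of all windows) and 55 in PM offspring (39 higher and 16 lower, 34.8%, against 44.1%). Their mean methylation per library ran from 54.7% to 55.9% in Sham and from 56.3% to 58.0% in Sham-OVA. In the PM arm it ran from 55.0% to 56.6% without OVA and from 56.2% to 57.6% with it. The mean over the 63 locus windows was 61.3% ± 0.440 in Sham and 61.2% ± 0.468 in Sham-OVA, and 61.7% ± 0.337 in PM and 61.0% ± 0.446 in PM-OVA libraries. The DMRs of the neighbours lay beyond Gsdma, in Med24, Thra, Cdc6 and Rara; 7 were higher and 1 lower in Sham, and 4 higher in PM offspring. The largest was in Rara, a retinoic acid receptor gene, at chr11:98963975-98966607, which rose from 28.9% to 45.7% in Sham and from 28.7% to 44.0% in PM offspring.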

How the data were processed

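The data were whole-genome enzymatic methyl-seq libraries (NEBNext, spiked with unmethylated lambda DNA) from 29 lungs. According to the sample labels and published methods, the authors trimmed reads with Trim Galore, mapped and called methylation with DRAGEN on GRCm38, and in SeqMonk averaged methylation over windows of a fixed number of CpGs that overlap a gene; they deposited a percent methylation per window and library. No normalisation between libraries is described, and although the study describes high genome-wide coverage per library, the depth behind each window is unknown, so no counting interval or count model was used; the study's own test on counts used library size as a covariate.

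Windows with at least 3 values in each group were kept (259167). Percentages were put on the scale log2((percent + 1)/(100 - percent + 1)) and fitted with limma's moderated test (two-sided; limma 3.58.1, R 4.3.3), all 4 groups in one fit, with Benjamini-Hochberg adjustment over all windows. Mean percentages per gene were fitted likewise over 38163 genes. Groups were taken from the labels. Gene bodies, exons and starts came from GENCODE M21, upstream sequences from RefSeq (GRCm38). The fit was tested on simulated data for OVA in Sham over 259167 windows, scored by the rule for a DMR. Of 200 changed windows, 196 (98%) were recovered, with 0 false DMRs. In the real data 35.6% of all windows were called in Sham offspring, most without reaching the DMR limit. How well windows called by adjusted p alone are recovered, or how many of them are false, was therefore not tested.

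The windows named are, for each gene, the one over its start, the one with the largest mean OVA difference and every DMR; all other windows named in the text were chosen after their values were seen. The members and all gene lists were chosen with earlier results of these data known. Alternatives were another offset, untransformed percentages, complete windows only, centred libraries, a trended prior, a replicate block, other thresholds, gene medians, membership by gene body, and leaving out each library. The titles and the library names in the labels number some libraries differently. Libraries of different groups with the same number deviated together only slightly by title (42 pairs, r from -0.0409 to 0.104, median 0.0141) or by library name (36 pairs, r from -0.0283 to 0.104, median 0.0204). Pairs with other numbers had medians of -0.00227 and -0.00232 and reached 0.0868. Nothing in the labels pairs the libraries.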

Additional observations from a re-analysis of the deposited data

Results flagged for a closer look

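Among the named windows and gene means, 96 sets of 7 or 8 libraries were checked for a single library far from the rest, and 7 were found, where chance flags about 1 set in 20. Sham-OVA replicate 7 was the highest of its group in 3 windows: Ikzf3 19 at 61.0% (next 51.5%), Zpbp2 1 at 7.57% (next 5.18%) and Zpbp2 2 at 49.7% (next 47.3%). In all 3 it stood on the side of the unchallenged Sham libraries, and without it the Ikzf3 19 difference in Sham offspring was -17.4 points. In Pgap3 1, PM-OVA replicate 1 was the highest at 44.6% (next 42.8%). In Stard3 1, Sham replicate 6 was at 1.78%, with the next library at 0.116%, in a window that was otherwise near 0. The Grb7 mean of PM replicate 1 was 59.5% (next 57.3%), and the Stard3 mean of Sham replicate 4 was 66.0% (next 64.5%).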

How the results depend on the processing

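The count of windows called in the locus stayed within 1.5 times its main value under each alternative except a stricter threshold: at an adjusted p under 0.000001 it was 2 in Sham and 3 in PM offspring, against 30 and 32. Of all windows, 1.14% in Sham and 2.12% in PM offspring passed that threshold by limma. With a minimum difference of 5 points there were 6 DMRs in Sham and 10 in PM offspring, against 3 and 3. Over all 259167 windows there were then 15435 and 15259 DMRs, against 2008 and 1513. On gene medians instead of means 2 genes were called in Sham (Stard3 higher, Erbb2 lower) and 3 in PM offspring (Erbb2, Grb7 and Ikzf3 lower), against 6 and 6, and Grb7 and Ormdl3 changed direction in both arms (Ormdl3 to 1.51 and 1.04 points, not called). Leaving out one library at a time gave 28 to 31 windows called in Sham and 27 to 33 in PM offspring, and 2 to 3 and 3 to 3 DMRs; the contrasts of PM with Sham and the interaction stayed at 0. With the replicate block on title numbers 30 windows were called in Sham and 30 in PM offspring; among the named windows, Ikzf3 1 (adjusted p = 0.0523) and Ormdl3 1 (0.0590) were lost and Erbb2 1 (0.0286) gained in PM offspring. With the replicate block on library numbers, added after the data were seen, 32 and 28 were called. On the log2 scale the sign turned, among the named windows, only in ones that were not called: Gsdma 2 in PM offspring with either replicate block (0.331 points as a plain difference, adjusted p = 0.938 and 0.798) and without PM-OVA replicate 2 (-0.0232 points) or 8 (-0.132; range over left-out libraries -0.132 to 0.814), and Stard3 1 in Sham offspring without Sham-OVA replicate 5 (-0.0822; range -0.0822 to 0.291). The cause of these changes was not tested. The depth behind each window is unknown, so how far it limits small differences was not tested.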
